A study of Mus musculus with 8 samples.

Results

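The carriers described here bring amino acids, lactate, organic ions, fatty acids and zinc across the outer membrane of the cell and across the membranes of its vesicles, or bring nucleotide sugars into the Golgi. They were chosen by name alone, as every gene whose platform symbol was Slc, then 1, 3, 6, 7, 16, 22, 27, 30, 35, 38, 39 or 43, then the letter a and a number. The rule took 94 of the 12393 genes that had a probe set annotated to a single gene, and no measured value entered it. The rule was itself chosen with earlier results of these data known. It left out Slc6a20a and Slc6a20b, whose symbols end in a letter. The study set 2 kinds of cell against each other on Affymetrix 430A 2.0 arrays, each cut by laser from frozen yolk sac sections of FVB/N mice at embryonic day 9.5: primitive erythroid precursors, which are the first red cell precursors of the embryo (4 arrays), and epithelial cells (4 arrays). The labels give the strain and stage as the same in both groups and name no treatment. Each erythroid sample had an epithelial partner taken from its own slides, which made 4 pairs, and each replicate pooled 2 to 4 yolk sacs from 2 litters, so that single embryos are not resolved. Signals are the deposited MAS5 intensities, a linear brightness per probe set that cannot be set against another gene's probe set.

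Solute carriers move their cargo by coupling it to an ion gradient, by exchanging it for another solute, or by letting it run down its own gradient. Several work in pairs of proteins: the Slc7 light chains reach the membrane with an Slc3 heavy chain, and the monocarboxylate carriers of the Slc16 family with the chaperones basigin (Bsg) or embigin (Emb). In the rodent yolk sac the visceral endoderm, the epithelium that faces the maternal side, absorbs nutrients and passes them on to the embryo before the placenta is established, while erythroblasts take up glycine to make heme.

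The labels were checked against markers first. Of 12 erythroid markers, 9 were higher in the erythroid captures (median log2 difference 2.09), and 9 of 12 visceral endoderm markers were lower there (median -1.47). The erythroid markers that did not pass were Epor (1.46), Hbb-y (0.07) and Hbb-bh1 (-0.11). Those of endoderm were Krt18 (-0.46), Ttr (-0.20) and Afp (-0.16). Epithelial captures had a mean Hbb-bh1 signal of 36732, against 39902 in their erythroid partners. For Afp these means were 26125 and 26340. How much of the other cell type each capture held was not tested. Markers of mesenchyme, smooth muscle and mesothelium also passed the test in the erythroid direction in 7 of 10 cases, with summed signals of 38966 to 56340 in erythroid and 8358 to 34136 in epithelial captures. For megakaryocytes and platelets 3 of 5 tested markers did so (summed signals 5064 to 18604 in erythroid and 1667 to 2735 in epithelial captures), with Gp9 above background on no array. Endothelial markers gave 1 of 4 (728 to 1826 against 426 to 847), with Pecam1 and Tie1 above background on no array, and macrophage markers 0 of 3 (951 to 1510 against 646 to 1057), with Cd68 above background on no array. The array's control probe sets split the pairs: 3′ to 5′ signal ratios of Gapdh were 38.7 to 44.4 in pairs 1 and 2, against at most 17.4 over pairs 3 and 4. The median marker differences were also smaller in pairs 1 and 2 (1.25 erythroid, -1.02 endoderm, 0.36 mesenchyme) than in pairs 3 and 4 (3.13, -1.83 and 2.34), so values are given by set of pairs where they differ.

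Transporters lower in the erythroid captures outnumbered those that were higher. Of the 94 genes, 52 had a probe set bright enough to be tested, and 4 of these (7.69%) passed the test as higher in the erythroid captures, where 6.02% of all 7191 genes tested did. Another 10 (19.2%) passed as lower, against 8.87% of all genes tested. The 4 that rose were Slc6a9, Slc43a3, Slc38a4 and Slc39a6, and the 10 that fell were Slc39a4, Slc27a2, Slc7a9, Slc6a13, Slc22a2, Slc16a1, Slc7a7, Slc7a8, Slc22a23 and Slc38a10. Without pair 3 the counts were 1 higher and 6 lower (2.52% and 4.74% of all genes tested), without pair 4 they were 1 and 5 (1.56% and 3.38%), and without the pair term in the fit 0 and 4 (1.52% and 2.95%). In all 14 the difference had the same sign in each of the 4 pairs, and in 11 it was at least 2-fold (4 higher, 7 lower). Passing a paired test favours 1 sign in all pairs, so the count of signs is no separate support. The matching shares of all genes called were not counted. Of the 52, 31 (59.6%) lay below zero, against 50.4% of all genes tested. The median log2 difference over the 52 was -0.29, beside -0.005 over all genes tested. It was -0.037 over all 94 with no filter, and -0.042 over 43 without probe sets of the x, s and a kinds, whose probes can match more than 1 transcript or gene. A gene was tested where its probe set reached the array median on at least 4 of 8 arrays. No tested transporter did so in 1 group alone, and 32 did so on all 8 arrays. The test was limma's paired fit over all tested probe sets, two-sided, with Benjamini-Hochberg adjustment and a threshold of 0.05. In these bulk captures fewer cells of a type and less RNA per cell cannot be told apart.

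**Figure D1:**
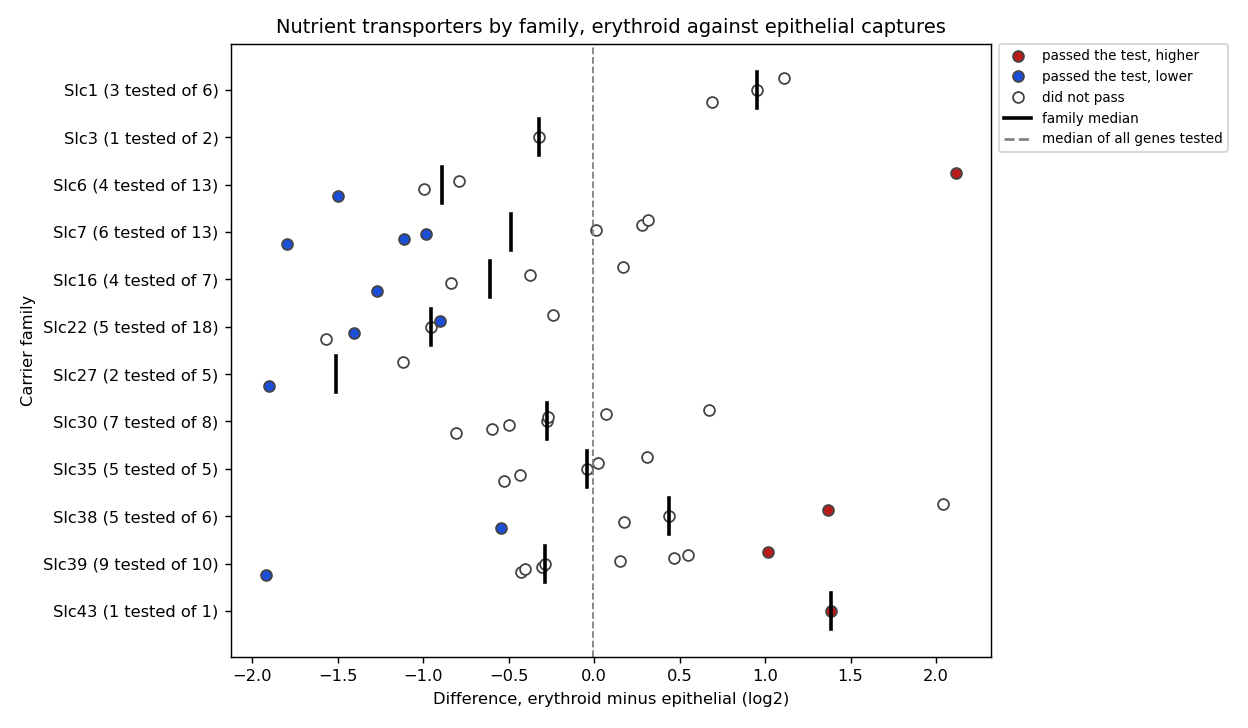
Log2 difference, erythroid minus epithelial, of each of the 52 tested transporters by carrier family, with filled points for those that passed the test, black bars for family medians and a dashed line at the median of all genes tested. The lower calls lie in 7 families, 3 of them in Slc7, and the 4 higher calls lie in 4 families.

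By family, the Slc7, Slc16, Slc22 and Slc27 carriers gave calls in the lower direction alone. In Slc7, 3 of 6 tested genes fell (family median -0.49), and in Slc22 2 of 5 fell (median -0.95). Slc16 gave 1 of 4 (median -0.61) and Slc27 1 of 2 (median -1.51). Slc6, Slc38 and Slc39 each held 1 gene that rose and 1 that fell, among 4, 5 and 9 tested. No gene passed in Slc1 (3 tested, median 0.95), Slc3 (1 tested), Slc30 (7 tested, median -0.27) or Slc35 (5 tested, median -0.04). The family medians are descriptions of a few genes each and were not tested.

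The DNA around the start sites of the called carriers is shown because erythroid cells and yolk sac endoderm both use GATA factors, whose motif can be searched for. In RefSeq windows of 250 bases before to 50 bases after a start (build GRCm38.p6), the GATA motif AGATAA, read on both strands, occurred in 11.2% of all 32851 windows. The transporters had 95 windows of 70 genes, and 10 windows (10.5%) held it. Of the carriers that rose, Slc6a9 and Slc38a4 were matched to windows, and 1 of their 6 held it, that of Slc38a4 below. Of those that fell, 9 genes were matched, and 3 of their 16 windows held it, 1 of Slc7a9 and 2 overlapping windows of Slc7a7. The window of Slc7a9 held it 2 times, once on each strand. These are matches of letters and were not tested as binding sites. The Slc38a4 window is 1 of its 3 and lies on the minus strand at chr15:97031164-97031463, and the Slc7a9 window is 1 of its 2 and lies on the plus strand at chr7:35448842-35449141. Both read 5′ to 3′ along the gene, with AGATAA or its reverse complement in capitals.
Slc38a4: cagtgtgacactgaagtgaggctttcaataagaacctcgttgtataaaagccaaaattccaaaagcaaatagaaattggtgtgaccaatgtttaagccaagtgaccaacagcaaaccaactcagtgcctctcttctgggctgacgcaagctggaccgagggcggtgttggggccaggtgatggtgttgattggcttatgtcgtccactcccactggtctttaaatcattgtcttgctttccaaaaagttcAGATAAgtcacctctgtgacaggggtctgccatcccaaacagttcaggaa
Slc7a9: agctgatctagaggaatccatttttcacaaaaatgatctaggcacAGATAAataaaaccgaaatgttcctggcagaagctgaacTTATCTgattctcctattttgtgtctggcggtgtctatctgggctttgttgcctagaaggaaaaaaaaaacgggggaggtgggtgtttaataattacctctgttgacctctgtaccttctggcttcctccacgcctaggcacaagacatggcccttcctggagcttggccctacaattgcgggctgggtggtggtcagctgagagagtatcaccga

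Among the sodium-coupled amino acid carriers, the glycine transporter Slc6a9 was the most strongly raised transporter that passed the test. Its signal was 267, 470, 391 and 500 in the erythroid captures of pairs 1 to 4, against 46.7, 340, 43.2 and 36.8 in the epithelial captures. The epithelial sample of pair 2 stood far above the other epithelial samples and inside the erythroid range, so the groups overlapped. The other epithelial values were below their arrays' background level, which is set by the top 5% of 117 receptor, keratin-associated and defensin probe sets. Slc6a9 averaged 407 ± 104 in erythroid and 117 ± 149 in epithelial captures (SD, n = 4 each), a log2 difference of 2.12 ± 0.39 (SE, adjusted p = 0.00629), or 4.35-fold. A further Slc6a9 probe set, too dim to be tested, averaged 106 in erythroid and 90.7 in epithelial captures. Its within-pair differences were 0.96, 1.53, -0.34 and -0.49 in pairs 1 to 4, so its sign was reversed in pairs 3 and 4. The call held with any 1 pair left out, with adjusted p between 0.00419 and 0.0497, but without the pair term in the fit the adjusted p was 0.0557. Slc6a13, a carrier of GABA and taurine, fell. It read 39.9, 29.1, 159 and 110 in erythroid captures, against 104, 217, 293 and 198 in epithelial captures. Pairs 1 and 2 gave the lowest erythroid values, which were below background, and the groups overlapped. The difference was -1.50 ± 0.41 (adjusted p = 0.037), and leaving out any 1 pair ended the call (adjusted p between 0.0572 and 0.115). Slc6a8, which takes up creatine, read 260, 268, 468 and 236 in erythroid against 262, 434, 702 and 791 in epithelial captures and did not pass (-0.79 ± 0.28, adjusted p = 0.0828). A further tested Slc6a8 probe set did not pass either (-1.23 ± 0.40, adjusted p = 0.0624). Its within-pair differences were -2.07, -0.38, -0.37 and -2.12 in pairs 1 to 4.

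In the Slc38 family, which carries glutamine, alanine and other neutral amino acids with sodium, Slc38a4 rose and Slc38a10 fell. Slc38a4 signals were 1169, 1313, 892 and 1110 in erythroid captures and 836, 789, 185 and 222 in epithelial captures. The erythroid values were alike, and the lowest of them was above every epithelial value; the epithelial values of pairs 3 and 4 were far below those of pairs 1 and 2. The log2 difference was 1.37 ± 0.31 (adjusted p = 0.0158), with 0.60 in pairs 1 and 2, and 2.14 over pairs 3 and 4. A further Slc38a4 probe set gave 0.91 ± 0.30 (adjusted p = 0.066). Slc38a10, a less studied member, read 3528, 3786, 3525 and 4795 in erythroid captures against 5606, 4978, 5470 and 7111 in epithelial captures. Here the groups did not overlap, and the difference was the smallest of the 14 (-0.54 ± 0.13, adjusted p = 0.0188). The other 3 tested probe sets of Slc38a10 gave 0.085, 0.055 and -0.11, and the mean of its probe sets gave -0.13 (adjusted p = 0.694). Both calls were lost without pair 3 (adjusted p = 0.0735 for Slc38a4 and 0.0665 for Slc38a10) and without pair 4 (0.101 and 0.103).

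Slc38a5, a glutamine carrier, had a large difference that missed the threshold. It read 200, 86.5, 814 and 735 in erythroid captures and 88.4, 92.6, 11.8 and 143 in epithelial captures. Only the erythroid samples of pairs 3 and 4 stood well above all epithelial samples. The log2 difference of 2.04 ± 0.65 had an adjusted p of 0.0623, and it was 0.55 in pairs 1 and 2, and 3.54 over pairs 3 and 4. Slc38a5 passed in 4 of the 14 alternative settings that tested it. Slc38a2, the widely expressed amino acid carrier that cells induce when starved of amino acids, gave 2523, 2360, 1663 and 2014 in erythroid captures against 2336, 2159, 1204 and 1105 in epithelial captures (0.44 ± 0.19, adjusted p = 0.155).

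No carrier of the Slc1 family passed the test, although all 3 tested members had positive differences. Slc1a4, which exchanges alanine, serine and cysteine, read 301, 253, 416 and 193 in erythroid captures against 243, 131, 158 and 49.5 in epithelial captures. It was higher in the erythroid sample of every pair (0.95 ± 0.30, adjusted p = 0.0578). The glutamine exchanger Slc1a5 read 104, 197, 66.3 and 205 against 76.9, 220, 7.5 and 82.9 in the epithelial captures (0.69 ± 0.47, adjusted p = 0.37). The glutamate carrier Slc1a3 had a difference of -0.25 in pairs 1 and 2, 2.47 over pairs 3 and 4, and 1.11 ± 0.65 in all (adjusted p = 0.286). Its epithelial values of pairs 3 and 4 were 17.7 and 9.06, below background, against 155 and 139 in the erythroid samples of those pairs.

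Slc43a3, which in human cells carries purine nucleobases rather than amino acids, rose. It read 350, 352, 863 and 913 in erythroid captures against 177, 320, 124 and 220 in epithelial captures. All erythroid values lay above all epithelial values, by little in pair 2 and by much in pairs 3 and 4. The log2 difference was 1.38 ± 0.35 (adjusted p = 0.0242), with 0.56 in pairs 1 and 2, and 2.21 over pairs 3 and 4. The call was lost without pair 3 (adjusted p = 0.101) and without pair 4 (0.138). Beside the carriers that rose, the markers of mesenchyme (median log2 difference 1.38) and of megakaryocytes and platelets (1.70) were higher in the erythroid captures too. The part of these other cell types in the carriers' differences was not tested.

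**Figure D2:**
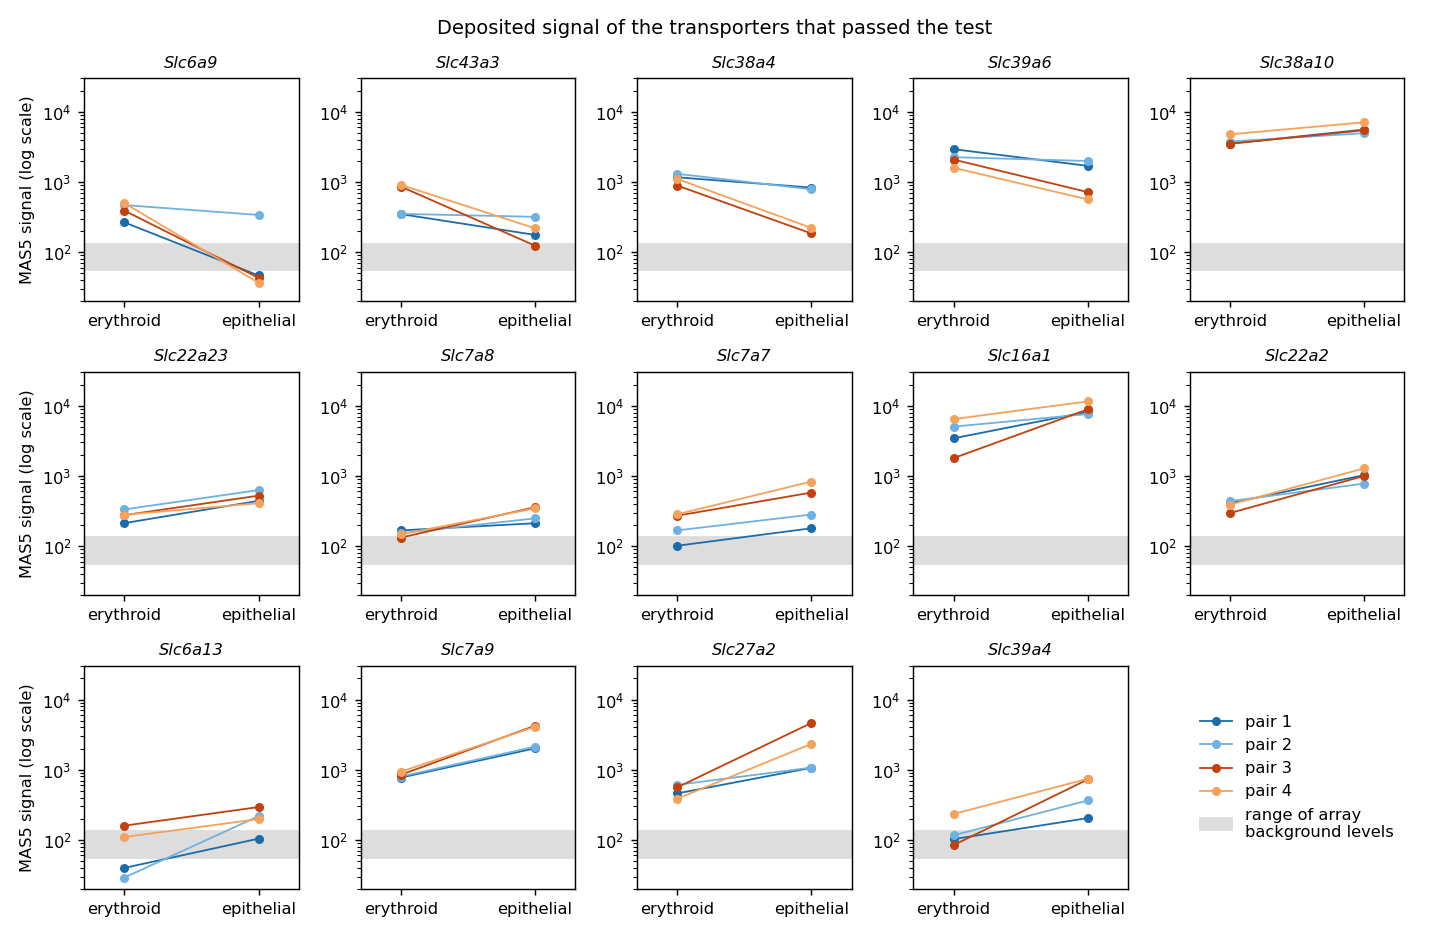
Deposited MAS5 signal on a log axis for the 14 transporters that passed the test, erythroid captures left and epithelial captures right, with 1 line per pair and the range of array background levels (55.1 to 133) in grey. The lines of Slc6a9 start above the grey band and end below its upper edge except in pair 2, and those of Slc7a9 and Slc16a1 lie above the band throughout.

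The exchangers of the Slc7 family included the transporter with the smallest adjusted p. Slc7a9 is the light chain that takes up cystine and dibasic amino acids in kidney and intestine, where it pairs with the heavy chain Slc3a1. Its signal was 771, 799, 845 and 937 in erythroid captures, against 2013, 2128, 4229 and 4081 in epithelial captures. The erythroid samples were close to each other and far below every epithelial sample, and the epithelial samples of pairs 3 and 4 were the brighter ones. Slc7a9 averaged 838 ± 72.8 in erythroid and 3113 ± 1206 in epithelial captures (SD, n = 4 each). The log2 difference was -1.80 ± 0.22 (adjusted p = 0.00133), a level 3.48-fold higher in epithelial captures, with -1.34 in pairs 1 and 2, and -2.26 over pairs 3 and 4. This call held under all 15 alternative settings. The heavy chain Slc3a1 was not tested. It was above background on 0 of 4 erythroid and 1 of 4 epithelial arrays, with signals of at most 63.2 and 117.

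Slc7a7 and Slc7a8, light chains that pair with the heavy chain Slc3a2 and handle dibasic and neutral amino acids, both fell. Slc7a7 read 101, 167, 271 and 284 in erythroid captures against 179, 281, 578 and 831 in epithelial captures. The epithelial partner was higher in every pair, while the groups overlapped because pairs 3 and 4 were brighter in both cell types. The difference was -1.11 ± 0.25 (adjusted p = 0.0164), and the call was lost without pair 3 (0.0624) or pair 4 (0.138). Slc7a8 read 167, 153, 132 and 147 in erythroid captures and 211, 248, 357 and 345 in epithelial captures. These groups did not overlap, but the adjusted p of 0.048 (-0.98 ± 0.29) stood just under the threshold and rose above it with any 1 pair left out (0.0538 to 0.211). Neither the heavy chain Slc3a2 nor its light chain Slc7a5 passed. Slc3a2 read 515, 438, 589 and 768 in erythroid against 308, 631, 862 and 1436 in epithelial captures (-0.32 ± 0.26, adjusted p = 0.456). Slc7a5, which brings in leucine and other large neutral amino acids, read 149, 132, 205 and 268 against 48.6, 133, 156 and 319 (0.32 ± 0.36, adjusted p = 0.601). Slc7a1 and Slc7a11, carriers of cationic amino acids and of cystine, were above background on no array.

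Partner proteins outside the carrier families were measured too. Of 4 tested, 2 fell and 0 rose (median log2 difference -0.92). Nptn averaged 4102 in erythroid and 3655 in epithelial captures and did not pass (0.20 ± 0.14, adjusted p = 0.377). Collectrin (Cltrn), which kidney epithelium needs to bring Slc6 amino acid carriers to the surface, read 185, 212, 152 and 178 in erythroid captures and 518, 710, 1079 and 720 in epithelial captures. All erythroid values were far below all epithelial values. It fell by 2.04 on the log2 scale (SE 0.26, adjusted p = 0.00161). Of the Slc6 carriers it is known to partner, Slc6a18 was tested and did not pass (-0.99, adjusted p = 0.0564); the others were not analysed here.

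Lactate and other monocarboxylates are carried by the Slc16 family. Slc16a1, the broad lactate and pyruvate carrier, was above background on every array and lower in the erythroid captures. It read 3432, 5039, 1792 and 6449 in erythroid captures, against 8185, 7610, 8867 and 11516 in epithelial captures. The erythroid sample of pair 3 was the lowest, and no erythroid value reached the epithelial range. Slc16a1 averaged 4178 ± 2012 in erythroid and 9045 ± 1726 in epithelial captures (SD, n = 4 each), with a log2 difference of -1.27 ± 0.21 (adjusted p = 0.0038). The call held with any 1 pair left out, but not without the variance trend (0.0585) or the pair term (0.0942). Of the chaperones of this family, Emb fell and Bsg did not. Emb read 1039, 2654, 739 and 1684 in erythroid captures against 3499, 5714, 5003 and 8490 in epithelial captures, with no overlap (-2.04 ± 0.26, adjusted p = 0.00148). The Emb difference was -1.36 in pairs 1 and 2, and -2.72 over pairs 3 and 4, and these differed (adjusted p of the interaction 0.0222). Bsg did not pass (0.45 ± 0.31, adjusted p = 0.368). Which of the 2 chaperones Slc16a1 used in these cells was not tested. Slc16a3, the lactate carrier of glycolytic cells, was not tested and was above background on 1 erythroid and 0 epithelial arrays.

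Carriers of organic ions and carnitine in the Slc22 family gave 2 calls, both lower. Slc22a2, an organic cation carrier best known from the kidney, read 408, 437, 296 and 389 in erythroid captures against 1026, 777, 998 and 1279 in epithelial captures. The groups were widely separated. The difference was -1.40 ± 0.24 (adjusted p = 0.00416), 2.64-fold higher in epithelial captures, and the call held under all 15 alternative settings. Slc22a23, whose cargo is not known, read 212, 333, 276 and 280 against 441, 628, 523 and 408 in epithelial captures. Its groups did not overlap either, with a difference of -0.90 ± 0.22 (adjusted p = 0.023). Leaving out pair 1, 3 or 4 ended that call (0.075, 0.0731 and 0.0763). The carnitine carrier Slc22a5 was lower in each erythroid sample than in any epithelial one, 232, 85.1, 263 and 165 against 298, 405, 289 and 265, and did not pass (-0.95 ± 0.33, adjusted p = 0.0821). A further Slc22a5 probe set, too dim to be tested, averaged 64.5 in erythroid and 22.5 in epithelial captures. Its within-pair differences were 0.63, 0.99, 2.80 and -0.59 in pairs 1 to 4. Slc22a18, an imprinted gene, had the most negative difference of the tested transporters that did not pass. It read 40.1, 84.5, 7.62 and 132 in erythroid captures against 115, 115, 200 and 168 in epithelial captures (-1.57 ± 0.64, adjusted p = 0.129). Its erythroid sample of pair 3 was far below the rest, and 3 of the 4 erythroid values were below background. A further Slc22a18 probe set, above background on no array and not tested, went the other way. It averaged 53.0 in erythroid and 14.5 in epithelial captures, with within-pair differences of 1.99, 0.18, 0.29 and 1.91. Slc22a4 was above background on no array.

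In the Slc27 family of fatty acid carriers and acyl-CoA synthetases, Slc27a2 fell and differed between the sets of pairs. Slc27a2 activates very long chain fatty acids and aids their uptake in liver and kidney. It read 459, 609, 560 and 386 in erythroid captures, against 1063, 1070, 4629 and 2331 in epithelial captures. The erythroid values varied little, whereas the epithelial sample of pair 3 was far brighter than those of pairs 1 and 2. The log2 difference was -1.90 ± 0.35 (adjusted p = 0.00625), 3.74-fold higher in epithelial captures. It was -0.97 in pairs 1 and 2, and -2.84 over pairs 3 and 4, with an adjusted p of 0.0135 for the difference between these. Slc27a2 was the 1 transporter of 52 that passed that interaction test, which 2.00% of all genes tested did. The call between the cell types held with any 1 pair left out, and was lost without the variance trend (0.0586). Slc27a4, the fatty acid carrier of the intestine, read 105, 169, 22.9 and 227 in erythroid captures against 92.7, 246, 264 and 343 in epithelial captures (-1.12 ± 0.50, adjusted p = 0.167). In the list of fatty acid activation and carnitine shuttle genes, 1 of 7 tested fell, Acsl4 (-0.98 ± 0.25, adjusted p = 0.024, lost without pair 1, 3 or 4 at 0.0531, 0.0893 and 0.0576), and 0 rose, with a median of 0.01.

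Zinc carriers work in opposite directions: Slc39 proteins bring zinc into the cytosol, and Slc30 proteins take it out of the cytosol or into vesicles. Of 16 tested zinc carriers 1 rose and 1 fell (median -0.28), both of them importers. Slc39a4, the zinc importer of intestine and visceral yolk sac in the mouse, fell. It read 102, 116, 84.3 and 234 in erythroid captures, against 204, 364, 726 and 742 in epithelial captures. The epithelial partner was higher in every pair, and the groups overlapped only through the erythroid sample of pair 4 and the epithelial sample of pair 1. The log2 difference was -1.92 ± 0.33 (adjusted p = 0.00489), 3.79-fold higher in epithelial captures, and the call held under each of the 14 alternative settings that tested this gene.

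Slc39a6, an importer of the plasma membrane, rose. Its signals were 2943, 2263, 2094 and 1599 in erythroid captures, against 1703, 1998, 721 and 566 in epithelial captures. The erythroid partner was higher in every pair, but the erythroid sample of pair 4 was dimmer than the epithelial samples of pairs 1 and 2. The difference was 1.02 ± 0.24 (adjusted p = 0.02), with 0.48 in pairs 1 and 2, and 1.56 over pairs 3 and 4, and the call was lost without pair 3 (0.094) or pair 4 (0.114). Slc39a8, an importer of zinc and manganese, read 16151, 19519, 21610 and 10322 in erythroid captures and 17642, 11662, 14768 and 10997 in epithelial captures. The ranges overlapped (0.15 ± 0.11, adjusted p = 0.398).

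No exporter passed the test among 7 tested Slc30 genes. Slc30a1, the zinc exporter of the plasma membrane, read 245, 404, 12.8 and 259 in erythroid captures against 253, 196, 315 and 268 in epithelial captures (-0.81 ± 0.66, adjusted p = 0.455). The erythroid sample of pair 3 alone stood apart, and without that pair the difference was 0.27. Slc30a5, which loads zinc into the secretory pathway, read 1228, 1593, 1347 and 1349 against 1373, 1261, 1220 and 1503 in epithelial captures (0.07 ± 0.19, adjusted p = 0.841). The metallothioneins bind zinc and are induced by it. Mt1 read 5877, 6061, 14541 and 5402 in erythroid captures against 9543, 8403, 18386 and 8858 in epithelial captures and fell by 0.62 on the log2 scale (SE 0.12, adjusted p = 0.00696), a call lost when the gene's probe sets were averaged (0.23). Mt2 did not pass (-0.10 ± 0.11, adjusted p = 0.597). The metal response motif TGCNCNC, read on both strands, occurred in 13 of the 18 promoter windows of the zinc carriers (72.2%) and in 51.0% of all windows. With 4 or more matches there were 2.30% of all windows, 4 of the 95 transporter windows (4.21%) and 1 of the 18 of zinc carriers. The zinc carrier window was that of Slc30a4, with 5 matches, and Slc30a4 did not pass the test (-0.27, adjusted p = 0.543). These too are matches of letters and were not tested as binding sites.

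The nucleotide sugar carriers of the Slc35a subfamily feed the glycosyltransferases of the Golgi, and none of the 5 passed the test. Slc35a1, which carries CMP-sialic acid, read 1523, 2266, 1454 and 1271 in erythroid captures against 1359, 2163, 1660 and 1570 in epithelial captures (-0.04 ± 0.18, adjusted p = 0.903). Slc35a2, which carries UDP-galactose, read 3970, 7439, 7042 and 2659 in erythroid captures against 8341, 7711, 5865 and 4618 in epithelial captures (-0.43 ± 0.19, adjusted p = 0.159). Both cell types held high and low samples of it. Slc35a5, a related carrier, read 248, 274, 114 and 156 against 180, 322, 282 and 252 in epithelial captures (-0.53 ± 0.32, adjusted p = 0.313). Of 13 tested genes for nucleotide sugar synthesis, 0 rose and 0 fell by limma at the adjusted threshold (median -0.28). In the other Slc35 subfamilies, 3 of 9 tested genes fell and 0 rose (median -0.67): Slc35f6 (-1.05 ± 0.28, adjusted p = 0.0305), Slc35b4 (-0.92 ± 0.26, 0.0391) and Slc35f5 (-0.74 ± 0.22, 0.0471). Each of these 3 calls was lost without pair 3 (0.124, 0.0533 and 0.147) and without pair 4 (0.156, 0.197 and 0.218), and those of Slc35b4 and Slc35f5 also without pair 1 (0.126 and 0.0972). Genes of these other subfamilies were taken by symbol alone, and whether each carries a nucleotide sugar was not examined here.

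Several amino acid carriers are targets of the stress response that Atf4 drives when amino acids are short, so its other genes were counted. Of 12 tested, 3 rose and 2 fell, with a median of 0.02. Asparagine synthetase (Asns) read 1771, 1935, 2811 and 2608 in erythroid captures against 641, 890, 476 and 487 in epithelial captures. The groups were far apart, and the difference was 1.91 ± 0.27 (adjusted p = 0.00225), with 1.26 in pairs 1 and 2, and 2.56 over pairs 3 and 4. Atf4 itself rose by 0.70 ± 0.16 (adjusted p = 0.0168) and the asparaginyl-tRNA synthetase Nars by 0.45 ± 0.12 (0.0265). The serine synthesis enzymes moved the other way: Phgdh read 2634, 2714, 3924 and 2935 in erythroid captures against 6214, 6353, 12049 and 8032 in epithelial captures (-1.37 ± 0.14, adjusted p = 0.00102), and Psat1 fell by 0.66 (SE 0.11, adjusted p = 0.0045). Calls of Atf4 and Nars were lost without pair 3 (0.0876 and 0.127) and without pair 4 (0.0837 and 0.0858), that of Nars also without pair 1 (0.0695), and both when arrays were centred on their medians (0.182 and 0.511). Of 9 tested genes for amino acid sensing at the lysosome, 1 fell (Lamtor1, -0.48 ± 0.12, adjusted p = 0.0235, lost without pair 2 at 0.0851 and without pair 4 at 0.0929) and 0 rose.

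**Figure D3:**
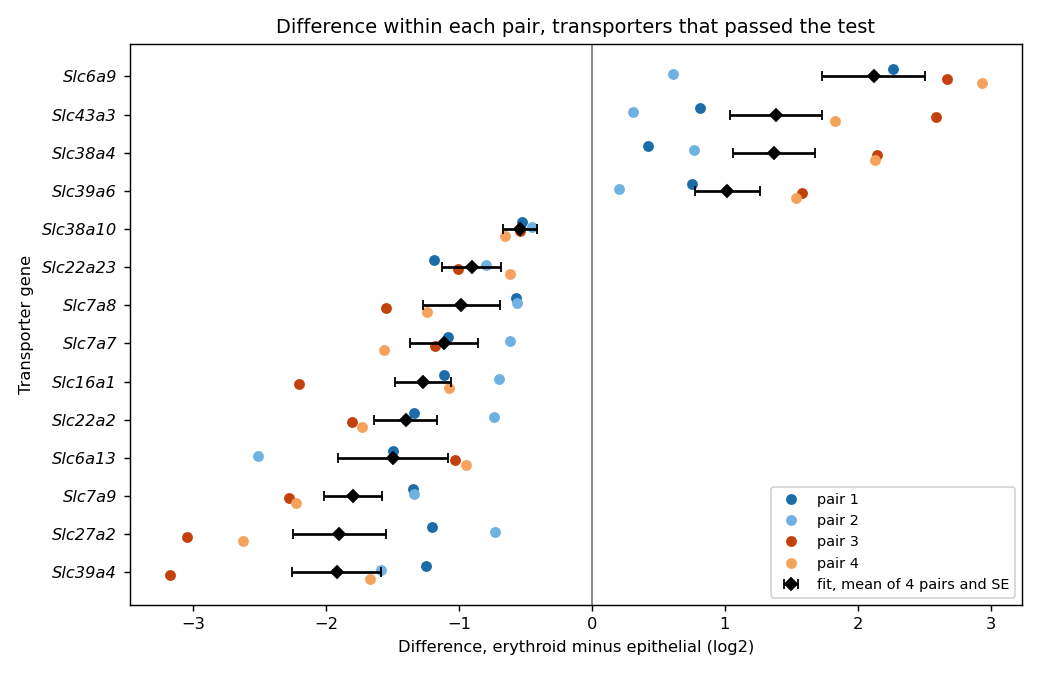
Log2 difference, erythroid minus epithelial, within each of the 4 pairs for the 14 transporters that passed the test, with the fitted mean and its SE as black diamonds and bars. All points of a gene lie on the same side of zero, and in Slc6a9 pair 2 lies apart from the others at 0.61.

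Most carriers, like most genes, had larger differences in pairs 3 and 4. Of the 14 that passed, 12 differed more in pairs 3 and 4 than in pairs 1 and 2, as did 88.3% of all genes called. The exceptions were Slc6a13 (within-pair differences of -1.50 and -2.51 in pairs 1 and 2, -1.03 and -0.95 over pairs 3 and 4) and Slc22a23 (-1.19, -0.80, -1.01 and -0.62 in pairs 1 to 4). Over all tested transporters it was 36 of 52, beside 65.4% of all genes tested. With pairs 1 and 2 alone, 1 transporter passed as higher and 9 as lower (3.42% and 5.51% of all genes tested). With pairs 3 and 4 alone, 7 passed as higher and 16 as lower (12.6% and 14.1%). Each of these fits had 1 residual degree of freedom. The 3′ to 5′ ratios and the mesenchyme markers moved with the same set of pairs, and their part in these differences was not tested.

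**Figure D4:**
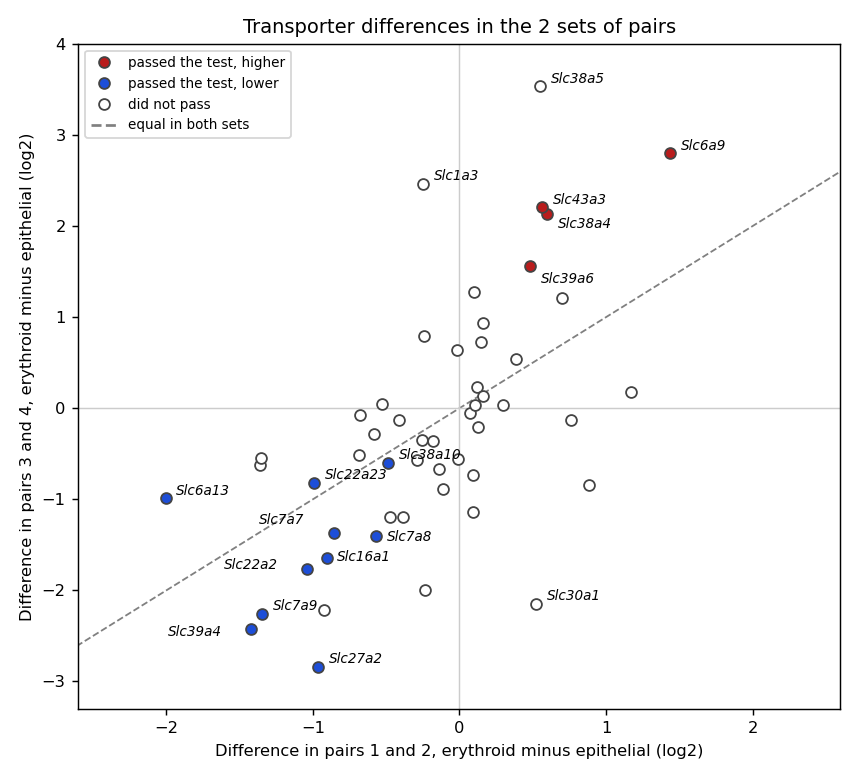
Log2 difference, erythroid minus epithelial, of the 52 tested transporters in pairs 1 and 2 (horizontal axis) and over pairs 3 and 4 (vertical axis), with a dashed line where both are equal. Slc27a2 lies at -0.97 and -2.84, Slc38a5 at 0.55 and 3.54, and Slc30a1 on opposite sides of zero at 0.52 and -2.15.

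The deposited signals gave a count of separated groups as well. In 2 transporters all erythroid signals exceeded all epithelial signals (6.22% of all genes tested), and in 8 all were below them (7.48%). At an unadjusted p under 0.05, 7 transporters were higher (14.3% of all genes tested) and 18 lower (16.8%). The 38 tested transporters that did not pass had log2 differences from -1.57 to 2.04. Of these, 21 have no values above beyond the few already given: Slc6a18, Slc7a4, Slc7a6, Slc16a6, Slc16a7, Slc16a11, Slc22a12, Slc30a3, Slc30a4, Slc30a6, Slc30a7, Slc30a9, Slc35a3, Slc35a4, Slc38a1, Slc39a1, Slc39a3, Slc39a7, Slc39a11, Slc39a13 and Slc39a14. Their differences ran from -0.99 to 0.67, and the smallest adjusted p among them, that of Slc6a18, was 0.0564.

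The other 42 transporters were too dim to be tested. For 21 of them no probe set was above background on any array, and the highest signal among all 42 was 238. Slc6a17 and Slc22a17 were above background on 5 arrays each and Slc27a3 on 4, the most among these genes. The untested genes included 13 of the 18 Slc22 genes, 9 of the 13 Slc6 genes and 7 of the 13 Slc7 genes. For these the arrays give no comparison of the cell types, and a low signal does not show that the gene is silent. Slc16a10, Slc30a10, Slc43a1 and Slc43a2 were not analysed here.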

How the data were processed

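RNA of 4 erythroid and 4 epithelial captures, 10 to 39 ng per sample, went through two-cycle labelling to 1 array each, per the labels' protocols. The authors deposited 1 intensity per probe set and array, a MAS5 signal on a linear scale, and GCOS, MAS5 and affy are listed in the submitters' processing notes, with versions not given in the sources used here. The mean signal after trimming 2% at each end was 500 on the first array of the table, and array medians were 81.6 to 127. Genes were named from the platform annotation, with symbols updated through RefSeq gene identifiers.

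From the deposited intensities log2(signal + 8.14) was computed, the offset being the 10th percentile of all values, and the arrays were quantile normalised. Of 22626 probe sets that are no controls, 11449 reached their array's median on at least 4 of 8 arrays and were tested in limma 3.58.1 under R 4.3.3 (lmFit, and eBayes with its variance trend), in a model of pair and cell type and 3 residual degrees of freedom. Log2 differences are erythroid minus epithelial on this scale, so those of dim genes are understated, and p-values were adjusted by Benjamini-Hochberg over all probe sets tested. A gene was read from its brightest tested probe set. The pairing comes from the labels' protocols (same slides), and the deviations of a pair's samples from their group means correlated at 0.44, 0.34, 0.31 and 0.54; non-partners within the same set of pairs reached 0.28 to 0.35, so these values also reflect the split between pairs 1 and 2 and pairs 3 and 4. A further fit had the cell type within pairs 1 and 2 and within pairs 3 and 4. The 8 arrays limit the precision. The p-values rest on the spread of the within-pair differences over 4 pairs of pooled captures, moderated by the variance trend over all probe sets tested.

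Named are all transporters that passed the test, the brightest and the most changed tested member of each family, and a set of named carriers. The members, the lists and this rule were chosen with earlier results of these data known. Promoters are those of RefSeq (GRCm38.p6). Alternatives were deposited scaling, centring on medians, an offset of 32, no filter, a filter on all 8 arrays, no variance trend, no pair term, mean of probe sets, leaving out x, s and a probe sets, each pair left out, and each set of pairs alone.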

Additional observations from a re-analysis of the deposited data

Results flagged for a closer look

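Sample values on the normalised log2 scale were looked at in 62 groups of 4, in which chance flags about 1 in 20, and 4 groups had a sample far from the other 3, with a gap to the nearest of them, as a share of the group's range, above Dixon's critical value. For Slc6a9 it was the epithelial sample of pair 2 (share 0.989), at 340 where the other epithelial samples read 36.8 to 46.7. Slc7a9 stood apart in the erythroid sample of pair 1 (0.92), which was the lowest of its group. In the deposited signals (771, 799, 845 and 937 in pairs 1 to 4) that sample did not stand apart. For Slc38a10 it was pair 4 in both cell types, the erythroid sample (0.878) and the epithelial sample (0.865), each the brightest of its group. In the deposited signals of pairs 1 to 4 neither sample's share passed the critical value (3528, 3786, 3525 and 4795 in erythroid, 5606, 4978, 5470 and 7111 in epithelial captures). Slc27a2 differed more between the cell types in pairs 3 and 4 (-2.84) than in pairs 1 and 2 (-0.97), with an adjusted p of 0.0135 for the difference between the sets in limma's interaction term. Its negative sign held in all 4 pairs.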

How the results depend on the processing

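The sign of each of the 14 called transporters held in all alternatives that tested it. The calls of Slc7a9, Slc22a2 and Slc39a4 also held in all of them. Some named transporters that did not pass did so under alternatives that tested them. These were Slc38a5 (4 of 14), Slc1a4 (3 of 13), Slc6a8 (2 of 15) and Slc22a5 (2 of 14). Slc22a18, Slc27a4, Slc30a1, Slc35a2, Slc35a5 and Slc38a2 passed in 1 alternative each. Against 4 transporters higher and 10 lower, the fit with no variance trend called 1 and 4. With no replicate block, that is without the pair term, limma called 0 and 4 (6 and 15 at an unadjusted p under 0.05), and the 4 lower calls shared with the paired fit were Slc7a9 (adjusted p = 0.0137), Slc22a2 (0.0183), Slc39a4 (0.0327) and Slc27a2 (0.0351). Pairs 1 and 2 alone gave 1 and 9, and pairs 3 and 4 alone 7 and 16. Leaving out 1 pair at a time gave 1 to 5 higher and 5 to 8 lower, and over all genes tested 112 to 430 higher and 243 to 594 lower. With 4 pairs all genes tested numbered 433 higher and 638 lower, with no variance trend 106 and 246, with no replicate block 109 and 212, and with arrays centred on their medians 298 and 788, where the median of all genes shifted to -0.14.

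Family medians that moved by more than the SD between the pairs' medians were those of Slc1 with pairs 1 and 2 alone (0.10), Slc6 with no filter (-0.35), Slc7 with no filter and without x, s and a probe sets (0.0091 in both), Slc16 with centred arrays (-0.72), no filter (-0.27) and the stricter filter (-0.38), Slc22 with no filter (0.22) and Slc38 without x, s and a probe sets (0.90). The Slc39 median was -0.21 with deposited scaling, -0.39 with centred arrays, 0.15 without x, s and a probe sets, -0.011 with pairs 1 and 2 alone and -0.35 to -0.12 with 1 pair left out. Within that SD, the median with pairs 1 and 2 alone and with pairs 3 and 4 alone was -0.60 and -2.42 in Slc27, 0.090 and -0.28 in Slc35, 0.14 and 0.73 in Slc38, and 0.093 and -0.74 in Slc3. Changes of sign occurred in genes that did not pass. Among tested transporters, those with pairs 1 and 2 alone were Slc1a3 (-0.25), Slc3a2 (0.093), Slc7a6 (-0.24), Slc30a1 (0.52), Slc35a1 (0.12), Slc35a4 (-0.019) and Slc35a5 (0.090), and those with pairs 3 and 4 alone Slc7a4 (-0.056), Slc7a5 (-0.12), Slc22a12 (0.049) and Slc35a3 (-0.84), beside Mt2 (0.061). The other alternatives were read for the named genes alone. With centred arrays Slc30a5 was at -0.14. With the mean of a gene's probe sets Slc35a1 was at 0.14, Slc35a2 at 0.23 and Slc35a5 at 0.084, and without x, s and a probe sets Slc35a5 was at 0.69. With 1 pair left out Slc7a5 ran from -0.014 to 0.55, Slc30a1 from -1.51 to 0.27, Slc30a5 from -0.030 to 0.14 and Slc35a1 from -0.11 to 0.038. The cause of these changes was not tested. Members near background, such as Slc6a13, Slc22a18 and the 42 untested ones, are limited by signal over background.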
